A study of Mus musculus with 6 samples.

Results

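Cluster 6 comprised 1755 of the 38154 nuclei profiled by single-nucleus RNA sequencing from mouse jejunal organoids, and its members were all nuclei that carried the number 6 in the cluster assignment deposited with the data. The organoids, grown from jejunal crypts of C57BL/6 mice aged 8 to 12 weeks, were kept in medium conditioned by quiescent (QCM) or senescent (SCM) mouse embryonic fibroblasts, with 3 samples of each. Both media were serum-free and came from purchased fibroblasts, made quiescent by low serum or senescent by X-ray or doxorubicin, so that QCM is the control for growth arrest without senescence. The sources used here do not state which of both inducers was used for these samples. The study's general statement takes replicates as mice unless said otherwise, but does not speak of these samples, so that p-values measure the spread between samples that may share a mouse. Markers of cells outside the epithelium were at or near 0: the summed level of 7 stromal markers in cluster 6 was at most 4.02 CPM (UMI counts scaled to a common library total of 1e6) in any sample with 5 of the 7 at 0, and that of 6 immune markers was also at most 4.02 CPM with 2 of the 6 at 0.

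Goblet cells of the intestine make and release gel-forming mucin, which they fold in the endoplasmic reticulum (ER), decorate with sugars in the Golgi and store in granules. Paneth cells sit at the crypt base of the small intestine, secrete lysozyme, defensins and other antimicrobial proteins, and supply Wnt and Notch ligands to neighbouring stem cells. Both arise from crypt progenitors that escape Notch signalling and express the transcription factor Atoh1, and Spdef acts after Atoh1 in the maturation of both.

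Depth differed between samples and bears on each value below. QCM replicates 1, 2 and 3 held 164, 452 and 398 nuclei of cluster 6, and SCM replicates 1, 2 and 3 held 15, 293 and 433. Their unique molecule (UMI) counts summed to between 299611, in SCM replicate 1, and 2401463, in QCM replicate 1, so that 3 counts corresponded to 10.0 CPM in the former and 1.25 CPM in the latter. In addition, QCM replicate 1 and SCM replicate 1 shared 175 cell barcodes, against at most 36 for any other pair of samples, and SCM replicate 1 had 430 nuclei in all. Of the cluster 6 nuclei, 11 in QCM replicate 1 and 7 in SCM replicate 1 carried a shared barcode, and none of these barcodes was in cluster 6 in both. Values from replicates 2 and 3 alone are therefore given for the counts of genes, for the tests and for the named genes whose level against other nuclei moved most.

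**Figure D1:**
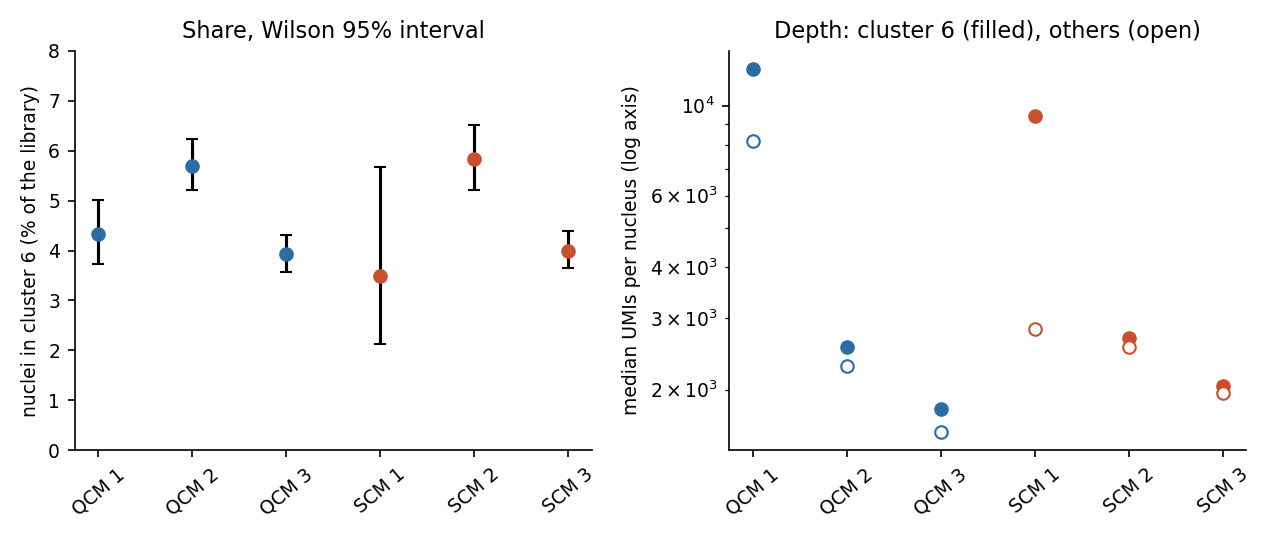
Share of nuclei in cluster 6 (percent of the sample's nuclei, with 95% Wilson intervals) and median UMIs per nucleus (log axis) of cluster 6 (filled) and of the other nuclei (open), for each of the 6 samples. The shares lie between 3.49% and 5.83% in both media, SCM replicate 1 has the widest interval, and both replicate 1 samples have the deepest nuclei of cluster 6.

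The working name of the cluster, goblet and Paneth-like nuclei, was set beside its marker genes. Each of the 6 given with the cluster, Ano7, Spdef, Kcnma1, Ern2, Sytl2 and Muc2, had its highest level among the clusters in cluster 6 in 6 of 6 samples, which describes the cluster and is no independent check of the name. Among Paneth genes, lysozyme (Lyz1) was highest in cluster 6 in 4 of 6 samples, the defensin Defa24 in 4 and the lectin Itln1 in 3, and the latter pair had means of 480 and 563 CPM in cluster 1 as well, or 241 and 374 CPM without QCM replicate 1. Cluster 6 had the highest mean of the 15 clusters for Lyz1 and, only just, for Defa24, at 579 CPM against 556 CPM in cluster 13. For Itln1 cluster 13 was higher, at 661.8 against 635 CPM. Without QCM replicate 1 the cluster 6 means of Defa24 and Itln1 were 394 and 542 CPM. The authors assigned clusters from these same expression values, so that levels of cluster 6 against other nuclei are a description and were not tested.

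The stretch before the start of transcription is shown for 2 of the markers, Muc2 because it encodes the defining mucin and Spdef because it encodes the factor of the lineage. Both are the 250 bases before the RefSeq start on GRCm38.p6, written 5′ to 3′ on the strand of the gene, at chr7:141690090-141690339 (plus strand) and chr17:27728952-27729201 (minus strand). Capitals mark matches to searched motifs.
Muc2: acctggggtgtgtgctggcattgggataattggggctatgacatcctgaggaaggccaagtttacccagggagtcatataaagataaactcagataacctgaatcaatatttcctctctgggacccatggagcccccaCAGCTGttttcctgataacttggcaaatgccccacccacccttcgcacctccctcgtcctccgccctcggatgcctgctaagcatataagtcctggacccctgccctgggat
Spdef: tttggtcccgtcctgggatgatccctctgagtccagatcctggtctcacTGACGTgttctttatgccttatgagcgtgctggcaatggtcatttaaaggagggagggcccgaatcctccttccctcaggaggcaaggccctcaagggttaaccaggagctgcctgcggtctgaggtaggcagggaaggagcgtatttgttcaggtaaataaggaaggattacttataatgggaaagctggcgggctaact
The search covered CAGCTG, the E-box type bound by Atoh1, TGTTTAC of forkhead factors, GATAAG of GATA factors and ACGTCA of CREB-type factors, on both strands from 250 bases before to 50 bases after the start. Muc2 held 1 match, CAGCTG at position -112, a motif found in 16.3% of 32851 promoters of the same length. Spdef held 1 match, ACGTCA on the opposite strand at position -201, found in 7.51% of promoters, and the Ano7 and Kcnma1 promoters held none of the 4. Ern2 and Sytl2 had no entry in the promoter table.

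The 6 markers are described first, and then the other genes with the largest difference from other nuclei. Each level is the UMI count of a gene summed over the cluster 6 nuclei of a sample, in CPM, and is compared with all other nuclei of the same sample as log2 of the ratio with 1 CPM added to both. Ano7 (chromosome 1, 93373930 to 93404303, plus strand), a member of the anoctamin family of channels and scramblases, was at 169.9, 264 and 247 CPM in QCM replicates 1, 2 and 3 and at 277, 194 and 235 CPM in SCM replicates 1, 2 and 3. It averaged 231 ± 41.4 CPM (SD, n = 6) in cluster 6 and 7.60 CPM in other nuclei, a log2 difference of 4.85 ± 0.67, the highest of 8361 genes with at least 20 CPM in either class. Cluster 6, which held 5.92% of all UMIs, held 67.1% of those of Ano7, between 53.9% and 79.0% in the 6 samples.

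Kcnma1 (chromosome 14, 23289431 to 24014491, minus strand), the pore-forming subunit of the BK potassium channel, was at 432, 905 and 723 CPM in the QCM samples and at 804, 905 and 946 CPM in the SCM samples. The sample with the lowest value, QCM replicate 1, was also the lowest of the QCM samples for every one of the 6 markers, and its deep nuclei were described above. The log2 difference of Kcnma1 from other nuclei was 4.50 ± 0.40, and the next level was 265 CPM in cluster 9, a cluster rich in the peptide hormone gene Cck.

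Spdef (chromosome 17, 27714352 to 27728955, minus strand), the ETS factor of goblet and Paneth maturation, was at 50.4, 143 and 149.6 CPM in QCM and at 46.7, 114 and 158 CPM in SCM. Both replicate 1 samples lay below the others, and the media overlapped. Ern2 (chromosome 7, 122169893 to 122186207, minus strand), the ER stress sensor IRE1-beta of mucous epithelium, gave 80.0, 172 and 157 CPM in QCM and 70.1, 162 and 219 CPM in SCM, with the same order of replicate 1 below the others. The log2 differences from other nuclei were 4.46 ± 1.17 for Spdef and 4.08 ± 0.77 for Ern2. Gm44985, with a log2 difference of 4.28 ± 0.98, lies next to Ern2 on the same strand, beyond its 3′ end, so that its counts cannot be told apart here from transcripts that run past the end of Ern2.

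Sytl2 (chromosome 7, 90302252 to 90410719, plus strand), which tethers Rab27-bearing granules to the plasma membrane, was at 119.9, 287 and 216 CPM in QCM and at 197, 240.4 and 216 CPM in SCM, 4.21 ± 0.79 above other nuclei on the log2 scale. Muc2 (chromosome 7, 141690340 to 141754693, plus strand), the gel-forming mucin, was at 222, 368 and 382 CPM in QCM and at 217, 293 and 392 CPM in SCM. Muc2 was less restricted than the other 5 markers: other nuclei had 25.8 CPM, the log2 difference was 3.72 ± 1.03, and cluster 6 held 38.0% of its UMIs, from 18.2% in QCM replicate 1 upward to 59.8%.

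**Figure D2:**
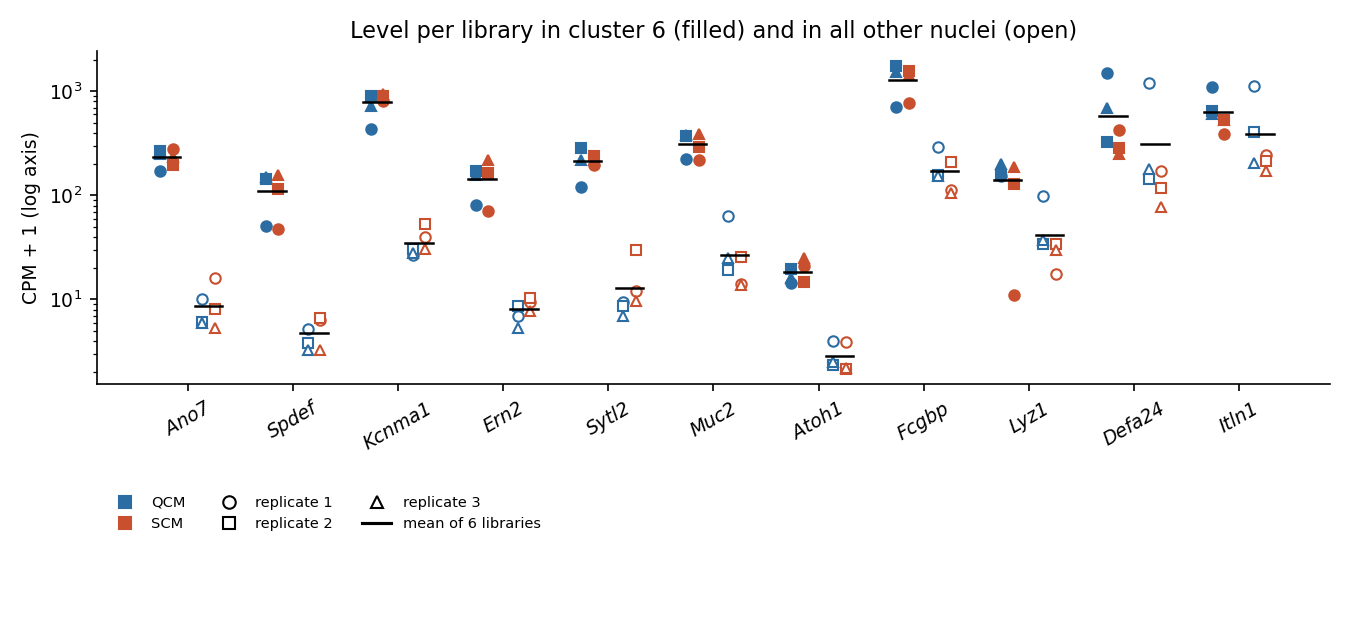
Levels of the marker genes in each of the 6 samples (CPM + 1, log axis), in cluster 6 (filled) and in all other nuclei of the same sample (open), coloured by medium, with the mean of the 6 as a line. In each sample each of the 6 cluster markers lies higher in cluster 6, as for Ano7 at 169.9 to 277 CPM against a mean of 7.60 CPM in other nuclei.

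The remaining genes among the 10 with the largest difference were Sntb1 (4.42 ± 0.70), a syntrophin that links membrane proteins to the cytoskeleton, Fer1l6 (4.27 ± 0.55), of the ferlin family of membrane fusion proteins, Plcb1 (4.08 ± 0.42), a phospholipase C that acts downstream of G proteins, and Spats2l (4.02 ± 0.46). Plcb1 was at 561 ± 148 CPM, with 147 CPM in cluster 9. Across all genes of at least 20 CPM, 158 (1.89%) were at least 2-fold higher in cluster 6 on average and higher in 6 of 6 samples, 36 of them at least 8-fold, and 18 (0.215%) were at least 2-fold lower and lower in 6 of 6. From replicates 2 and 3 alone the number higher was 176, and with each nucleus thinned to 1000 UMIs it was 171. Of all 31319 genes with a UMI, whatever their level, 4.52% were higher and 6.41% lower in 6 of 6 samples, 0.846% were also at least 2-fold higher and 0.399% at least 2-fold lower, and the median log2 difference was -0.06. The 10 named genes whose log2 difference moved most from replicates 2 and 3 alone were Spdef (5.12), Ern2 (4.50), Muc2 (4.14), Gm44985 (4.79), Creb3l1 (3.87), Dll1 (2.16), Fcgbp (3.36), Lyz1 (2.29) and Wnt3 (3.42), all further above other nuclei than over the 6 samples, and Cdh13 (-1.07), which was less far below. A gene can reach 20 CPM through cluster 6 alone, as 312 genes did. The gene lists below are therefore counted over every member found in the matrices and read against the shares over all genes with a UMI. Most of those genes lay under 20 CPM. Of the 8361 genes of at least 20 CPM, 13.3% were higher and 8.97% lower in 6 of 6 samples. These larger shares are the nearer reference for lists of mostly expressed genes. The goblet cargo, secretory fate, ER folding, granule exocytosis and ion transport lists include markers given with the cluster. Part of the higher count of each was thus fixed in advance. The members named beyond the few of highest level in a list were chosen after their values were seen.

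Most transcription factors of the secretory lineage were higher in cluster 6. Of 14 factors found, 9 were higher in every sample, 8 of them at least 2-fold, and 0 lower, with a median log2 difference of 1.57. Besides Spdef these included Creb3l1 (3.29 ± 0.94), a membrane-bound factor of secretory cells, Klf4 (1.72), a factor of goblet differentiation, and Foxa3 (1.42 ± 0.24). Xbp1, the factor activated by the IRE1 branch of the ER stress response, was 0.46 ± 0.23 higher. Atoh1 itself was too low to reach 20 CPM, at 13.3, 18.8 and 15.1 CPM in QCM and 20.03, 13.6 and 23.9 CPM in SCM against a mean of 1.84 CPM in other nuclei (log2 difference 2.72 ± 0.57). Its levels overlapped between media, and it was highest in cluster 6 in 6 of 6 samples.

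Notch pathway genes went both ways. Of 14 genes found, 3 were higher and 3 lower in every sample, with a median log2 difference of -0.04. The ligand Dll1, presented by secretory cells to their neighbours, was at 18.7, 46.6 and 38.2 CPM in QCM and 20.03, 30.4 and 48.7 CPM in SCM, and was 1.63 ± 0.90 higher than in other nuclei. The co-activator Maml3 was 0.52 ± 0.08 higher, whereas Hes1, the target that represses Atoh1 in cells receiving Notch signals, was lower in 6 of 6 samples (-0.32 ± 0.21, 158 against 192 CPM). Rbpj (-0.01 ± 0.28) and Maml1 (0.02 ± 0.25), shared parts of the nuclear complex, were near 0.

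Goblet cargo genes were higher as a group, with large differences among members. Of 14 found, 8 were higher in every sample, 6 of them at least 2-fold, and 0 lower, with a median log2 difference of 0.98. Fcgbp, a large secreted protein of the mucus layer, was at 712, 1757 and 1523 CPM in QCM and at 771, 1559.7 and 1430.4 CPM in SCM, with both replicate 1 samples lowest, and differed by 2.92 ± 0.88 from other nuclei. Bcas1 (3.95), Tpsg1 (2.57), Spink4 (1.82 ± 0.76), a trypsin inhibitor family member of goblet cells, and the protease Bace2 (1.46) followed. Of the same list, Zg16 lay between 0 and 82.7 CPM and was highest in cluster 6 in 1 of 6 samples. Clca1 lay between 0 and 21.3 CPM and was highest there in 0 of 6. The trefoil peptide Tff3, often used as a goblet marker, differed by 0.90 ± 0.45, with other nuclei also high: 465 ± 253 CPM in cluster 6, 281 CPM in all other nuclei and 420.1 CPM in cluster 1. Muc13, a membrane-bound mucin, was 0.59 ± 0.04 higher.

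Mucin folding and glycosylation genes had smaller median differences than goblet cargo. Of 31 ER folding and stress genes, 17 were higher in every sample, 8 of them at least 2-fold, and 1 lower, with a median of 0.36. Apart from Ern2 those at least 2-fold higher included Agr2 (2.17 ± 0.71), a protein disulfide isomerase required for Muc2 folding, Pdia5 (2.08), Dnajc10 (1.79), Txndc5 (1.75), Herpud1 (1.07) and Eif2ak3 (1.03), the kinase PERK. The general chaperones were near 0: Canx was -0.03 ± 0.05, Hsp90b1 0.08 ± 0.22 and Hspa5 0.04. Pdia3 was 0.30 ± 0.16 higher.

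Of 28 O-glycosylation genes, 16 were higher in every sample, 6 of them at least 2-fold, and 2 lower, with a median of 0.41. Those at least 2-fold higher included Galnt5 (3.47), Galnt12 (2.68), Galnt10 (1.51) and Galnt7 (1.14 ± 0.12), which add the first sugar of mucin-type O-glycans, and Gcnt3 (1.58), which branches them. Galnt7 was also high in other nuclei, at 372 CPM against 813 ± 182 CPM. B4galnt2 (0.41 ± 0.11) and St3gal6 (0.40 ± 0.10), which add sugars at the outer ends of chains, and Fut8 (0.32 ± 0.13), a fucosyltransferase that acts on the core of N-glycans, differed less although each was higher in 6 of 6 samples.

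Granule exocytosis genes were in part higher, as Sytl2 was. Of 18 found, 9 were higher in every sample, 8 of them at least 2-fold, and 1 lower, with a median of 1.09. Among the higher ones were, besides Sytl2, the motor adaptor Myrip (3.97), the granule GTPases Rab27a (2.65), Rab27b (1.76 ± 0.39) and Rab3d (1.09), and the actin-severing Scin (1.79). The general membrane fusion protein Stx3 was 0.10 ± 0.17, and Cadps2, a priming factor of dense-core granules, 0.30 ± 0.18.

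The ion transport genes high in cluster 6 were mostly markers given with the cluster, and others were low in it. Of 14 found, 3 were higher in every sample, all at least 2-fold, and 5 were lower in every sample, with a median of -0.14. Ano7 and Kcnma1 were given as markers of the cluster, so that their place among these 3 was fixed in advance. The third was Slc12a8, a member of the cation-chloride cotransporter family, at 652, 1610.1 and 984 CPM in QCM and 978, 1332 and 1319.8 CPM in SCM, a log2 difference of 2.81 ± 0.49. The chloride channel Cftr, at 465 ± 98.8 CPM, had a log2 difference of -0.43 ± 0.25, and Kcnq1 (-0.43) and Slc4a4 (-0.43) were also lower. The Cftr mean was lower than in any of the other 14 clusters, but only just, with 470 CPM in cluster 7 and 476 CPM in cluster 1. Cluster 6 was above cluster 1 for Cftr in 3 of 6 samples. The basolateral cotransporter Slc12a2, at 1007 ± 137 CPM, differed by -0.03 ± 0.14.

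**Figure D3:**
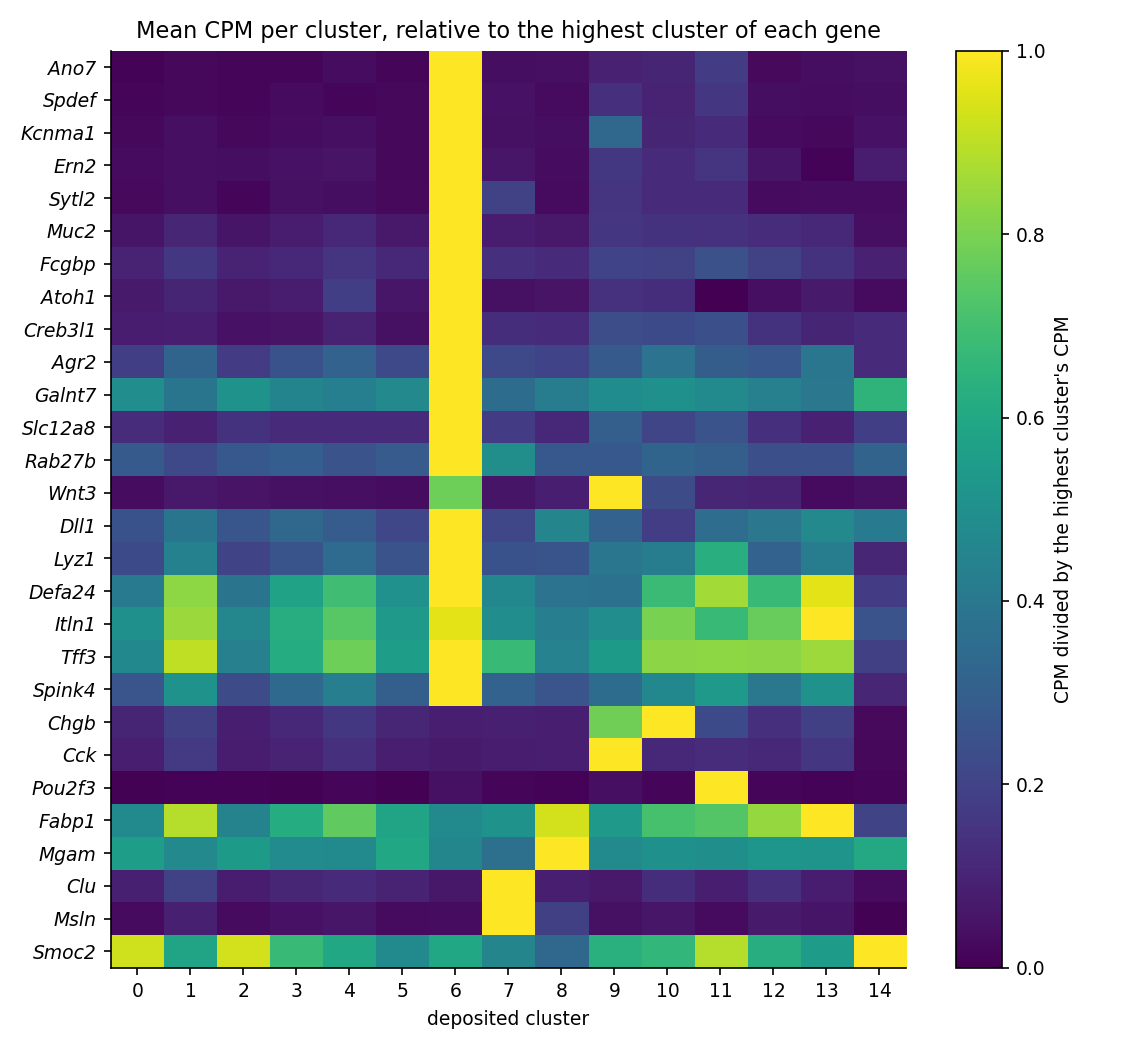
Mean CPM of named genes (rows) in each of the 15 deposited clusters (columns), divided by that of the gene's highest cluster, averaged over the samples in which that cluster had 10 or more nuclei. The 6 markers peak in cluster 6 alone, while Defa24, Itln1 and Tff3 are also high in cluster 1, where they average 480, 563 and 420.1 CPM, and in others. Itln1 is highest in cluster 13 at 661.8 CPM, a mean over 4 samples against 6 for cluster 6.

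Paneth genes fell into those highest in cluster 6 and those spread over other clusters. Of 23 antimicrobial genes found, 7 were higher in every sample, 6 of them at least 2-fold, and 0 lower, with a median log2 difference of 0.50. Other members were not concentrated there: cluster 6 held 3.83% of Reg3b, 3.79% of Pnliprp2 and 5.27% of Dmbt1 UMIs, against 5.92% of all UMIs. For Reg3b, a low gene, cluster 6 was above cluster 1 in 0 of 6 samples. Mmp7, the protease that activates defensins, was 2.05 ± 0.77 higher (44.6 against 8.89 CPM), and Ang4, an antimicrobial ribonuclease, 2.06 ± 1.00 higher (37.1 against 8.13 CPM). Lyz1 was at 153, 157 and 199 CPM in QCM and at 10.0, 128 and 185 CPM in SCM. The low value is SCM replicate 1, where 10.0 CPM is the level of 3 counts, and Lyz1 was higher than in other nuclei in the other 5 samples (log2 difference over all 6, 1.53 ± 1.28).

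Defa24 was at 1504, 326 and 687 CPM in QCM and at 424, 285 and 249.3 CPM in SCM, 1.29 ± 0.55 above other nuclei, yet cluster 6 held 8.97% of its UMIs, between 7.22% and 16.9% in the 6 samples and 15.5% without QCM replicate 1, and cluster 6 was above cluster 1 in 5 of 6 samples. For Itln1 (635 ± 246 CPM, log2 difference 0.97 ± 0.64) cluster 6 held 8.26% of UMIs, between 5.77% and 16.5% in the 6 samples and 12.7% without QCM replicate 1, and was above cluster 1 in 4 of 6 samples. The Defa genes are near-identical copies, and Lyz1 has the close paralog Lyz2, so that the division of counts among them is uncertain. Nupr1, a stress-response factor listed with Paneth genes, was 0.66 ± 0.25 higher but higher still in cluster 7.

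Of 7 Paneth niche factors, 4 were higher in every sample and 1 lower, with a median of 0.95. Wnt3, the Paneth-derived Wnt ligand, was at 14.99, 42.4 and 40.2 CPM in QCM and 23.4, 42.6 and 47.0 CPM in SCM, 2.95 ± 0.78 above other nuclei, with cluster 9 higher still at 45.0 CPM. After thinning to 1000 UMIs per nucleus, Wnt3 was 1.62 and Dll1 0.69 above other nuclei, and without SCM replicate 1, where neither had a thinned UMI in cluster 6 and 1 UMI is 66.7 CPM, they were 2.52 and 1.59 above. Lyz1 in the same way was 0.98 above over all 6 samples and 1.86 without SCM replicate 1. The growth factor Tgfa did not stand apart (0.09 ± 0.38), and Cd44 was lower in cluster 6 in 6 of 6 samples (-0.38 ± 0.31). The mean of Cd44 was 86.8 CPM in cluster 6, near 88.8 CPM in cluster 0 and 88.0 CPM in cluster 1. It was 58.4 CPM in cluster 8 and 260 CPM in cluster 7.

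Nuclei of cluster 6 lay apart from all others in the projection deposited by the authors. Within a distance of 3 units of the centre of the cluster lay 97.8% of its nuclei and 9 other nuclei. After centring log2 levels over clusters, cluster 9 correlated most with cluster 6 (r = 0.19 across 12134 genes), followed by cluster 14 (0.14) and cluster 11 (0.13), the last being the cluster highest for the tuft factor Pou2f3. Clusters share the 6 samples, and genes are not independent, so that these r are descriptions. Cluster 11 was also next to cluster 6 for Ano7 (41.3 CPM) and Spdef (17.4 CPM).

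To describe how nuclei of cluster 6 vary among themselves, each nucleus was thinned to 1000 UMIs, which left out 88 nuclei of cluster 6 with fewer and kept 1667. A UMI of at least 1 of the 6 markers was found in 70.1% of these (82.6% before thinning) against 6.17% of other nuclei (16.9% before thinning), with median depths of 2522 and 2253 UMIs before thinning. Single genes were seen less often: Kcnma1 in 47.7% of cluster 6 nuclei and 2.26% of others, Muc2 in 25.4% and 2.46%, and Ano7 in 22.2% and 0.402%. Cluster 8, which is rich in the enterocyte enzyme gene Mgam, served as a class that should lack secretory genes. It gave 1.98% for Kcnma1 and 2.42% for Muc2 at a median of 2428.5 UMIs. By sample the shares in cluster 8 ran from 0 to 5.19% for Kcnma1 and from 0 to 5.88% for Muc2. The source of these UMIs, such as free RNA outside nuclei, was not tested.

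Lyz1 was found in 12.96% of cluster 6 nuclei and 4.54% of cluster 8, and Defa24 in 28.7% and 17.4%. In QCM replicate 1 Defa24 reached 72.6% of cluster 6 nuclei and 73.5% of all other nuclei, so that in this sample its detection did not set cluster 6 apart. As whole lists, goblet cargo was found in 91.6% and Paneth antimicrobial genes in 69.4% of cluster 6 nuclei, and 65.4% had UMIs of both, 26.2% of the goblet list alone, 3.96% of the Paneth list alone and 4.44% of neither. Both lists were seen in 34.6% of nuclei of cluster 8 and 52.3% of cluster 1, so that detection of a whole list was common outside cluster 6 as well. In QCM replicate 1 the share with both was 89.6% in cluster 6 and 85.7% in all other nuclei. Muc2 and Lyz1 UMIs occurred together in 3.84% of cluster 6 nuclei and 0.120% of other nuclei.

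Nuclei of cluster 6 with a Muc2 UMI (423) were compared with those without one at the same depth. They had 2.35 times the level of Ano7, 2.02 times that of Spdef, 1.63 times that of Fcgbp and 1.97 times that of Defa24, each higher in 5 of 5 samples compared. Among the other Paneth genes Itln1 at 1.58 times was higher in 5 of 5 samples, Lyz1 at 1.62 times in 4, Mmp7 at 1.94 times in 3 and the ligand Wnt3, at 0.774 times, in 1. The stem cell gene Lgr5 was at 0.488 times, higher in 0 of 5 samples. In the 79 nuclei with Mmp7, Wnt3 was at 0.283 times the level of the remaining 1588 nuclei, from 1 UMI against 71, a count too small to rank.

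Most markers of other epithelial types were lower in cluster 6 or near the level of other nuclei. Of 12 enterocyte genes 0 were higher in every sample and 6 lower, with a median of -0.56. Of 12 enteroendocrine genes 0 were higher and 8 lower in every sample, with a median of -0.87, Chgb at -0.91 ± 0.43 and Cck at -0.74 ± 0.23 on the log2 scale. The other nuclei include clusters 9 and 10, with Chgb at 411 and 523 CPM, and Cck was at 476 CPM in cluster 9. In cluster 6 Chgb and Cck were at 44.0 and 35.1 CPM, near the 43.6 and 36.9 CPM of cluster 2. Of 10 tuft genes 1 was higher and 2 lower in every sample, with a median of -0.08. No tuft gene reached 20 CPM, but the tuft factor Pou2f3 was higher than in other nuclei in 6 of 6 samples, at 13.03 against 6.12 CPM (0.94 ± 0.52), second to cluster 11 with 288.8 CPM. Of the other tuft genes Dclk1 and Trpm5 were at 1.54 and 0.820 CPM in cluster 6 and at 4.78 and 1.21 CPM in other nuclei. Of 7 stem cell genes 3 were lower in every sample and 0 higher (median -0.21), with Smoc2 at -0.21 ± 0.17 and Lrig1 at -0.02 ± 0.17. Of 12 fetal-type genes 5 were lower in every sample, each at least 2-fold on average, and 0 higher, with a median of -0.80. Clu, the gene of revival stem cells, was at -1.36 ± 0.82, with 30.9 against 109 CPM. The level in other nuclei was 384 CPM in SCM replicate 2 and averaged 54.4 CPM in the other 5 samples. With each nucleus thinned to 1000 UMIs, which weights nuclei of a sample alike, and without SCM replicate 1, where no thinned UMI of Clu was left in cluster 6, the difference was -0.24. The 6 genes furthest below other nuclei were Syt16 (-2.33 ± 0.92), Msln (-2.02 ± 1.47), Cdh13 (-1.93 ± 1.94), Cpe (-1.90 ± 1.37), Gm35533 (-1.65 ± 0.76) and Fstl4 (-1.58 ± 1.00), of which 4 were highest in cluster 7 and Cpe and Fstl4 in cluster 9. Most were lower in 6 of 6 samples, and Fstl4 in 5 of 6. These genes are near the limit of detection in cluster 6, with 6 to 25 UMIs over all its nuclei after thinning, at which depth the differences were -1.56 for Syt16, -0.70 for Msln, -1.37 for Cdh13, -1.49 for Cpe, -0.37 for Gm35533 and -3.10 for Fstl4, so that their order is not stable.

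**Figure D4:**
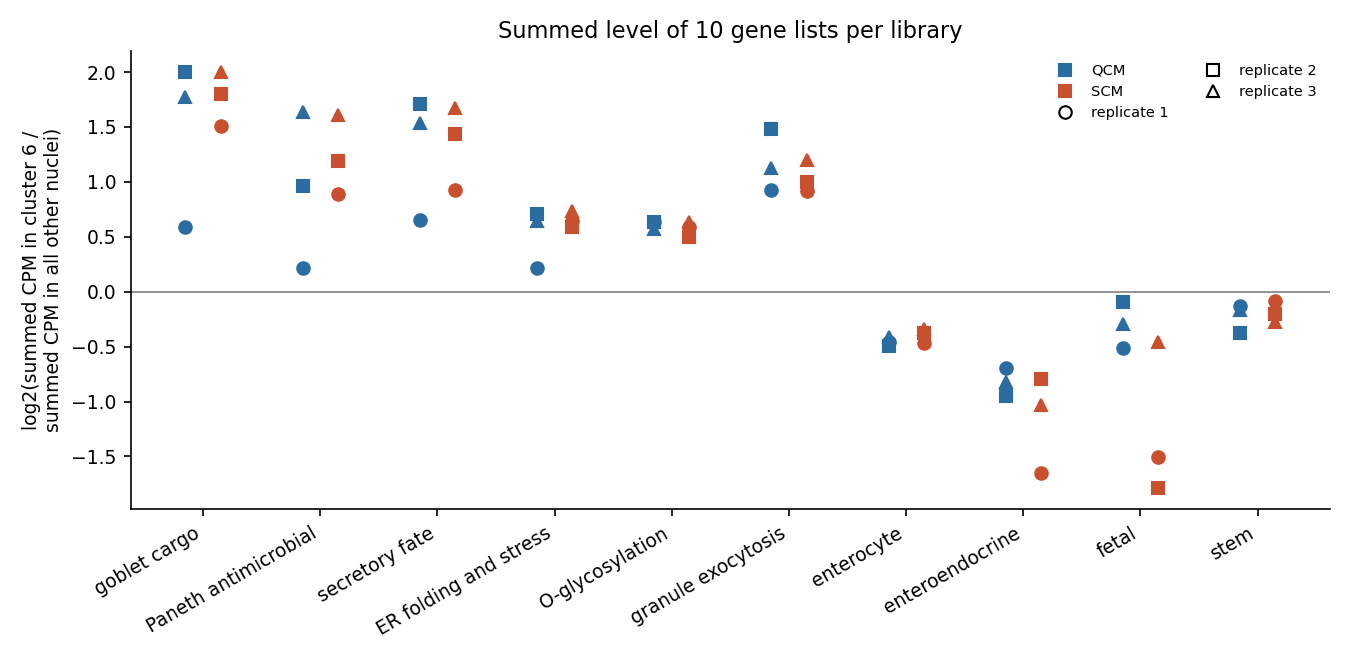
Log2 ratio of the summed CPM of 10 gene lists in cluster 6 to that in all other nuclei, 1 point per sample, coloured by medium. Goblet cargo sums lie above 0 in each sample (2673 to 4763 CPM in cluster 6 against 939 to 2292 CPM in other nuclei), and enterocyte sums lie below 0 in each.

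To ask whether SCM altered the abundance of these nuclei, their share was compared between media with the sample as the replicate. Cluster 6 made up 4.33%, 5.70% and 3.92% of nuclei in QCM replicates 1, 2 and 3 and 3.49% (95% Wilson interval 2.13 to 5.68), 5.83% and 3.997% in SCM replicates 1, 2 and 3. The means were 4.65% ± 0.93 and 4.44% ± 1.23 (SD, n = 3 each), and the groups overlapped (two-sided exact permutation p = 0.8, where 3 against 3 cannot go below 0.1). The log2 ratio of SCM to QCM from edgeR was -0.05 ± 0.31 (SE), with an adjusted p of 0.981 over 15 clusters, and from replicates 2 and 3 alone it was 0.03. Counting intervals cover counting error only, and the spread of shares between samples of 1 medium was larger than the difference between media.

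UMIs per nucleus of cluster 6 overlapped between media. The medians were 12310.5, 2542 and 1787.5 in QCM and 9437, 2685 and 2040 in SCM, so that both replicate 1 samples stood apart from the rest, and the means of 5546.7 ± 5869.8 and 4720.7 ± 4097.2 gave an exact permutation p of 0.9. The mean UMIs per nucleus, in place of the median, were higher in SCM in 3 of 3 replicate pairs, averaging 6933.7 in QCM and 9351.5 in SCM (exact paired permutation p = 0.25, the smallest possible for 3 pairs). Cluster 6 nuclei were deeper than other nuclei in each sample, by 1.04 to 1.51 times in 5 samples and 3.35 times in SCM replicate 1. The share of mitochondrial UMIs that the authors recorded per nucleus had a mean over sample medians of 2.04% in QCM and 2.07% in SCM (exact permutation p = 1).

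Within cluster 6 no gene passed the test of SCM against QCM. The quasi-likelihood test of edgeR on counts summed per sample called 0 of 11136 genes (0%) at an adjusted p of 0.05, and 590 genes (5.3%) had an unadjusted p under 0.05, 108 (0.97%) of them with higher and 482 (4.33%) with lower levels in SCM. DESeq2 called 2 genes (0.018%) and gave 440 with an unadjusted p under 0.05. In 980 genes (8.8%) the 3 SCM samples did not overlap the 3 QCM samples, lying above them in 588 (5.28%) and below them in 392 (3.52%). In all other nuclei edgeR likewise gave 0 calls among 18719 genes and 895 genes with an unadjusted p under 0.05.

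None of the markers of the cluster passed the test, and each overlapped between media. On the log2 scale the SCM to QCM difference from edgeR was -0.02 ± 0.22 for Ano7, -0.05 ± 0.42 for Spdef, 0.32 ± 0.28 for Kcnma1, 0.17 ± 0.36 for Ern2, 0.03 ± 0.26 for Sytl2 and -0.14 ± 0.27 for Muc2 (SE, adjusted p from 0.937 to 1.00). Atoh1 gave 0.21 ± 0.34. Ptk7, the receptor whose shed form the study followed in senescent medium, was too low in cluster 6 for the test, between 3.34 and 13.6 CPM.

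The 2 genes that DESeq2 called also had the smallest p in edgeR, where neither was called. Without the filter on low counts edgeR called 265 of 25081 genes, 19 higher and 246 lower in SCM, in a fit that gave every gene the spread of the trend. Of the 265, 53 were ribosomal protein genes, 48 were genes of oxidative phosphorylation and 20 were members of the gene lists. In the filtered test these 2 families made up 105 and 92 of 11136 genes. Among these 265 were Mgam2-ps, Rbms3, Arhgap6, Maml2, Smim24, Ces2a and Prap1, which are described next, Mmp7, Clu and Ano1 with higher levels, and Defa24, Tff3 and the enterocyte genes Fabp1, Fabp2, Lct, Apoa1 and Apoa4 with lower ones. Mgam2-ps (chromosome 6, 40778711 to 40855600, plus strand) was at 8.74, 10.3 and 15.1 CPM in QCM and at 46.7, 49.1 and 46.2 CPM in SCM. The media did not overlap, and the log2 difference was 2.05 ± 0.29 (edgeR adjusted p = 0.257, DESeq2 adjusted p = 0.00527). It is a pseudogene next to its relative Mgam, a brush border disaccharidase, which was at 376, 455 and 371 CPM in QCM and 347, 526 and 423 CPM in SCM, and how reads shared by both were counted is not given in the sources used here. Rbms3, an RNA-binding protein gene, was at 6.25, 5.45 and 17.1 CPM in QCM and at 46.7, 43.9 and 35.5 CPM in SCM, without overlap (2.16 ± 0.42, edgeR adjusted p = 0.892, DESeq2 adjusted p = 0.0301). In the other nuclei the estimates were 1.57 and 1.18, and the edgeR tests of the difference between cluster 6 and other nuclei gave adjusted p of 0.946 and 0.922.

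The other genes of smallest p, none called by edgeR with the filter or by DESeq2, were Arhgap6 (1.199 ± 0.32), Gm21781 (1.17 ± 0.32) and Maml2 (1.74 ± 0.48) with higher estimates in SCM, and Smim24 (-1.29 ± 0.30), Ces2a (-1.31 ± 0.31), Fbxl15 (-2.12 ± 0.54), Ech1 (-0.88 ± 0.23) and Prap1 (-1.88 ± 0.50) with lower ones, all with an edgeR adjusted p of 0.892. Ces2a, a carboxylesterase of enterocytes, was at 457, 223 and 313 CPM in QCM and 96.8, 152 and 165 CPM in SCM, without overlap. With the share of ribosomal protein UMIs as a covariate the estimates shrank to -0.66 for Smim24, -0.66 for Ces2a and -0.62 for Prap1. From replicates 2 and 3 alone they were -0.92, -0.79 and -0.88, and Prap1 was -1.08 without QCM replicate 1.

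**Figure D5:**
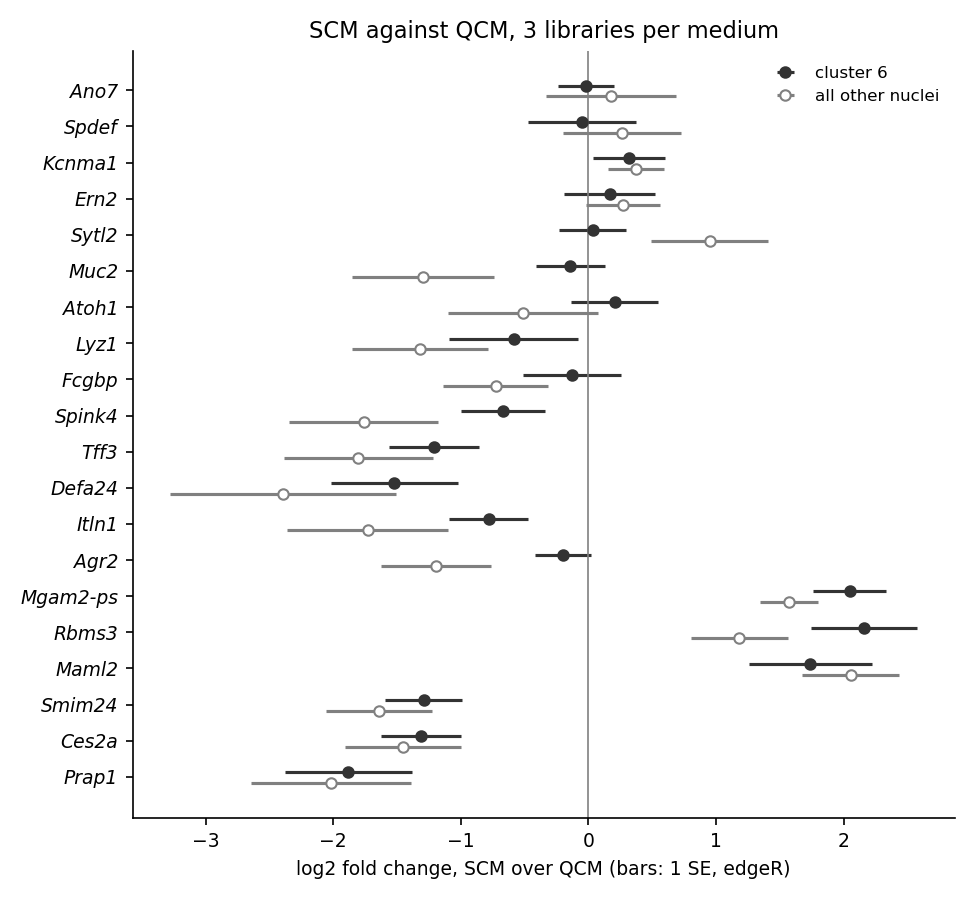
SCM to QCM log2 fold change of named genes in cluster 6 (filled) and in all other nuclei (open), with bars of 1 standard error (edgeR, n = 3 samples per medium). In cluster 6 its markers lie between -0.14 and 0.32, and Mgam2-ps and Rbms3 lie at 2.05 and 2.16 without passing the adjusted threshold of 0.05 in edgeR.

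Medians of most lists of secretory genes were near 0 between media, and the members with an unadjusted p under 0.05 are given by their count. Over all genes tested 0.97% were higher and 4.33% lower at this p, with a median log2 difference of 0.01. Of 11 goblet cargo genes tested 0 were higher and 2 lower, with a median of -0.13. Secretory fate factors (12 tested) and O-glycosylation genes (23) had none in either direction, with medians of 0.02 and 0.09. ER folding genes (30) had 1 higher and 4 lower (-0.16), granule exocytosis genes (17) 0 higher and 1 lower (-0.06), and ion transport genes (13) 1 higher, Ano1 at 1.79 ± 0.50, and 0 lower (0.12). Notch pathway genes (12) had 1 higher, Maml2 (0.01), Paneth niche factors (6) had Cd44 higher at 0.61 ± 0.25 (0.17), and stem cell genes (6) had none (0.17).

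Among Paneth antimicrobial genes the estimates went both ways, with a median of -0.37, further from 0 than those of the lists given before. The medians of enterocyte, enteroendocrine and fetal-type genes, given below, lay further still. Over all genes tested 0.97% were higher and 4.33% lower at an unadjusted p under 0.05. Of 12 tested, Mmp7 was higher at 1.24 ± 0.41 (16.2, 32.1 and 36.2 CPM in QCM against 20.03, 80.8 and 82.5 CPM in SCM), and Defa24 (-1.52 ± 0.50, unadjusted p = 0.0112) and Itln1 (-0.78 ± 0.31, unadjusted p = 0.0279) were lower, with adjusted p of 0.892 for all 3 in edgeR. Mmp7 and Defa24 overlapped between media and Itln1 did not. Tff3 had a lower estimate at -1.21 ± 0.35, from 763, 341 and 809 CPM in QCM and 234, 350.2 and 291 CPM in SCM, which overlapped. Lyz1 was -0.59 ± 0.51, and -0.18 without SCM replicate 1 but -1.16 without SCM replicate 3. In the other nuclei the estimates were -2.39 for Defa24, -1.73 for Itln1 and -1.80 for Tff3, lower in SCM too and none called.

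Genes of other cell types and the make-up of the RNA also differed in estimate. Over all genes tested 0.97% were higher and 4.33% lower at an unadjusted p under 0.05. Enterocyte genes (9 tested) had 0 higher and 4 lower with a median of -1.21, and enteroendocrine genes (3) 2 lower with a median of -1.13. The fetal-type list (6) had 3 higher with a median of 0.63, among them Clu at 1.63 ± 0.50, from 25.0, 8.47 and 11.05 CPM in QCM and 20.03, 82.1 and 38.8 CPM in SCM. YAP targets (8) had 1 higher, Rbms3, and 1 lower (0.24). Of 105 ribosomal protein genes, a family chosen after its values were seen, 97 had lower estimates in SCM with a median of -0.96, and of 92 genes of oxidative phosphorylation 86 did with a median of -0.89. Over all 11136 genes tested, 5459 had lower estimates. Ribosomal protein UMIs made up 11.1%, 4.62% and 9.03% of cluster 6 UMIs in QCM and 3.98%, 2.67% and 6.72% in SCM (means 8.24% and 4.46%, exact permutation p = 0.2). Within pairs of equal replicate number SCM lay below QCM in 3 of 3 (exact paired permutation p = 0.25, the smallest that 3 pairs can give), and the part of these genes in the other lower estimates was not tested. In the other nuclei ribosomal protein UMIs made up 14.4%, 4.99% and 10.4% in QCM and 4.24%, 2.63% and 7.33% in SCM. Enterocyte genes there summed to 5708, 1881 and 3143 CPM in QCM and 1017, 1737 and 2473 CPM in SCM. Fetal-type genes there summed to 219, 119 and 179 CPM in QCM and 455, 934 and 304 CPM in SCM. Shifts of these directions were thus also seen outside cluster 6.

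The last comparison asked whether SCM acted differently on cluster 6 than on the other nuclei of the same samples, with an edgeR interaction test that kept the sample as a block. It called 0 of 11136 genes (0%), and 593 (5.33%) had an unadjusted p under 0.05, with 429 (3.85%) higher in cluster 6 relative to other nuclei and 164 (1.47%) lower. From DESeq2 there were 0 calls and 212 genes with an unadjusted p under 0.05. Myof, a membrane repair ferlin, had the smallest p: it was at 39.1, 101 and 67.3 CPM in QCM and 30.04, 97.6 and 91.6 CPM in SCM in cluster 6 (log2 difference 0.15 ± 0.38), whereas the estimate in other nuclei was 2.48, an interaction of -2.14 ± 0.40 with an adjusted p of 0.254. From replicates 2 and 3 alone the interaction test called 13 genes, with Myof at -2.62 (adjusted p = 9.1e-06) and Sytl2, the granule tether, at -1.44, whereas SCM against QCM within cluster 6 gave 0 calls there too. Without QCM replicate 1 it called 6, again with Myof (-2.67), and without SCM replicate 3 it called 2 (Myof -2.93). Without SCM replicate 2, in contrast, Myof shrank to -1.41 (adjusted p = 1.00).

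Rn7sk, Dpysl3 and Samd5 had interactions of -0.86 ± 0.17, -1.86 ± 0.39 and -1.72 ± 0.40 (edgeR adjusted p from 0.267 to 0.391 over all 6 samples). Dpysl3 and Rn7sk were called with library size alone as scaling and without QCM replicate 1, Dpysl3 (adjusted p = 0.00377) and Samd5 (adjusted p = 0.0310) from replicates 2 and 3 alone, and all 3 without the filter on low counts. They shrank when other samples were left out, Rn7sk to -0.53 without SCM replicate 1, and Dpysl3 to -1.34 and Samd5 to -0.96 without SCM replicate 2. Samd5 was higher in SCM in both classes by estimate, 1.40 in cluster 6 and 3.05 in other nuclei. The other nuclei include cluster 7, where Myof, Samd5 and Dpysl3 had their highest means (207, 139 and 41.7 CPM). In cluster 6 these were 71.1, 20.7 and 20.2 CPM. In the opposite direction Aldh1b1 (0.74 ± 0.17), Tma7 (0.65 ± 0.15), Gm1123 (0.83 ± 0.21), Uqcrc1 (0.56 ± 0.15) and Slc35b1 (0.73 ± 0.19) had the smallest p (adjusted p from 0.391 to 0.677), with Gm1123 at 0.53 without QCM replicate 1, and the fit without the filter called Aldh1b1 (edgeR adjusted p = 0.00373) and Gm1123 (0.0272). By list, the members with an unadjusted p under 0.05 went both ways. Over all genes 3.85% were higher in cluster 6 relative to other nuclei and 1.47% lower. Goblet cargo had 2 higher and 0 lower, Paneth antimicrobial genes 4 and 0, ER folding genes 7 and 1, O-glycosylation genes 2 and 0, and secretory fate factors 1 and 0. The 105 ribosomal protein genes had 33 higher and 0 lower, and the 92 genes of oxidative phosphorylation 25 and 0. The part of such families in the list counts was not tested. Granule exocytosis genes had 0 higher and 3 lower, Sytl2 (-0.77), Sytl4 (-1.24) and Rab27b (-0.52). Rab27b was among the genes called from replicates 2 and 3 alone (-0.80, edgeR adjusted p = 0.00886) and without QCM replicate 1 (-0.77, edgeR adjusted p = 0.0375). Muc2 (0.99 ± 0.46), Agr2 (0.83 ± 0.30) and Spink4 (0.74 ± 0.33) were among the higher ones, with estimates in other nuclei of -1.30, -1.20 and -1.76 and adjusted p from 0.922 to 0.923. The fit without the filter called these 3, Fcgbp and Itln1 as higher and Sytl2 as lower. The share of Muc2 UMIs inside cluster 6 ran from 18.2% to 59.8% over samples, and the part of free RNA in their estimates was not tested.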

How the data were processed

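Nuclei were isolated from frozen organoids and libraries were made with the 10x Genomics 3′ v3.1 chemistry. Per the labels and the study's methods, the authors counted UMIs with Cell Ranger 2.1.1 on mm10 (Ensembl annotation), removed nuclei that lay over 3 mean absolute deviations above the rest in mitochondrial fraction or below it in reads or features, integrated libraries with Harmony and clustered with Leiden. The deposited raw counts of UMIs per gene and nucleus, the deposited cluster numbers, the mitochondrial fraction recorded by the authors per nucleus and the projection coordinates (a score with no unit, as deposited by the authors) were used, and 0 columns of per-sample values were set aside. The counts are of 3′ ends and are not scaled by length, so that levels are compared between nuclei and not between genes. How reads mapping to several genes were treated, and whether strand was used, is not given in the sources used here. Mki67, Top2a, Pcna, Foxf2 and mitochondrial genes were not analysed here. A result that the rule for named genes would give is not reported here.

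Counts were summed per sample over cluster 6 and over all other nuclei. SCM was compared with QCM with edgeR 4.0.16 (quasi-likelihood test, TMM, default filter with a minimum count of 10, Benjamini-Hochberg over all genes tested, threshold 0.05), with DESeq2 1.42.0 and limma 3.58.1 as alternatives, in R 4.3.3, and the scripts were tested on simulated data. The interaction test used both sums of a sample with the sample as a block. Shares were tested by edgeR over 15 clusters and by exact permutation. Cluster 6 against other nuclei has no test, since the clusters were made from the same counts. Thinning to 1000 UMIs used a fixed seed. Values after thinning without SCM replicate 1 and the counts of list members with no filter on level were chosen after seeing the data. No doublet caller was run, and fits without the 6% of nuclei with the most UMIs were tried instead. In sums over nuclei, fewer cells of a kind and less RNA per cell cannot be told apart. Coordinates are from GENCODE M21 on GRCm38, the assembly of mm10, and promoters from RefSeq on GRCm38.p6, where 4 of the 6 markers had an entry.

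The members and the gene lists were chosen with earlier results of these data known. Named genes are the 6 markers, the 10 genes of largest and 6 of smallest ratio to other nuclei, up to 4 members of highest level per list (2 for other cell types), the 5 of smallest p per direction in tests without calls, any gene that DESeq2 called, and Lyz1, Atoh1 and Ptk7. Not found in the matrices by name were Retnlb, Defa5, Defa20 and Hey1. Replicate numbers, taken from the labels, pair the samples by the rule used here: deviations from the mean of the medium correlated within pairs at r = 0.197, 0.340 and 0.102 over 11136 genes, each above 0.1. The last lay only just above it, and the replicate 1 samples share barcodes and depth as described above. What these correlations reflect was not tested. The fit with the pair as a block is an alternative.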

Additional observations from a re-analysis of the deposited data

How the results depend on the processing

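In the comparison of SCM with QCM in cluster 6, 0 genes were called under 16 of 18 alternatives, those that left out 1 sample included, and the number with an unadjusted p under 0.05 ran from 87 (share of ribosomal protein UMIs as a covariate) to 1365 (without the filter), and from 148 (without QCM replicate 1) to 1340 (without QCM replicate 2) when 1 sample was left out. The exceptions were DESeq2 with 2 calls and the fit without a filter on low counts with 265 of 25081 genes. Of these, 252 were among the genes of the filtered test, and the prior degrees of freedom of this fit were infinite in place of 6.62. Without the nuclei of shared barcodes SCM replicate 1 kept 8 nuclei of the cluster, fewer than the 10 required, and left the fit, which gave 0 calls. With the replicate pair as a block the fit gave 0 calls and 801 genes with an unadjusted p under 0.05, and the share gave a log2 ratio of -0.07 (adjusted p = 0.889). The block changed no call.

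The interaction test called 3 genes with library size alone as scaling (Myof, Dpysl3 and Rn7sk), 16 without a filter and 13 from replicates 2 and 3 alone, an alternative chosen after seeing the data, and 0 to 6 when 1 sample was left out, with 6 without QCM replicate 1, 2 without QCM replicate 2 (Spink4 and Reg4) and 2 without SCM replicate 3 (Myof and Srgap1). The log2 ratio of shares, near 0, turned to 0.035 with nuclei of at least 1000 UMIs and to 0.029 from replicates 2 and 3 alone, and lay between -0.31 and 0.12 when 1 sample was left out. The difference in median UMIs (-826 for SCM minus QCM) turned to 2417.7 with means, 197.75 from replicates 2 and 3 alone and, as a ratio to other nuclei, 0.56, and lay between -3184.2 and 2555.9 when 1 sample was left out. The cause of these differences was not tested. The number of genes at least 2-fold higher in cluster 6 stayed between 151 and 176, and the share of nuclei with a marker UMI moved from 70.1% to 82.6% without thinning, which keeps more UMIs per nucleus.

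Estimates of SCM against QCM for single markers, all far from the threshold, turned sign as follows. Ano7 was 0.041 with library size alone, 0.18 after thinning and 0.37 without the 6% of nuclei with the most UMIs. Spdef was 0.10 with voom, 0.17 after thinning, 0.22 without the 6% and 0.22 without shared barcodes. Muc2 was 0.26 after thinning, 0.20 without the 6% and 0.024 without shared barcodes. Sytl2 was -0.32 with the ribosomal covariate and -0.16 from replicates 2 and 3 alone. When 1 sample was left out, the estimates lay between -0.18 and 0.11 for Ano7, -0.45 and 0.22 for Spdef, -0.22 and 0.44 for Ern2, -0.23 and 0.29 for Sytl2, -0.42 and 0.032 for Muc2, -0.11 and 0.48 for Atoh1, 0.088 and 0.51 for Kcnma1 and -1.16 and -0.18 for Lyz1. SCM replicate 1, with 15 nuclei and a level of 10.0 CPM for 3 counts, limits what can be seen for low genes.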
